A study of Mus musculus with 6 samples.

Results

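The last step of CD8 lineage development in the thymus was measured on 4 of the 6 arrays of the series: 2 of CD8SP (CD4-CD8+) thymocytes and 2 of the CD4intCD8+ thymocytes that come just before them. All members of the comparison were chosen by their labels. The arrays were paired by the replicate number in their titles, and every gene above a low-signal limit was compared. The remaining 2 arrays held the earlier CD4+CD8+ double-positive (DP) stage. All 3 stages came from mice of 5 to 6 weeks with the genotype N15 TCR tg+/+ and RAG-2-/- on the H-2b background. N15 is a transgenic T cell receptor that sees a viral peptide on the class I molecule H-2Kb, and without RAG-2 the thymocytes rearrange no other receptor, so every stage carried the same receptor and lacked endogenous rearrangement. The cells were sorted from 6 age- and sex-matched mice by staining for CD4 (L3T4) and CD8 (Ly-2), so the coreceptor genes belong to the gate and are not findings. Total RNA was labelled as biotin cRNA and hybridised to mouse arrays. The labels name 2 independent experiments but do not say which mice went into each sort. The p-values below rest on 2 arrays a stage. In the main fit their spread was taken from all 6 arrays and largely from genes of like intensity (2 residual and 8.31 prior degrees of freedom). They measure no spread beyond these arrays.

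Thymocytes with a class I-restricted receptor pass from the DP stage through a CD4intCD8+ intermediate, in which CD4 is being lost, to mature CD8SP cells. Cells at the end of this path are known to gain the interleukin 7 receptor, the homing receptor Ccr7 and the egress receptor S1pr1, to gain cytotoxic and natural killer-type genes, and to shut down genes of the DP program. Runx3 is the factor best known for silencing Cd4 and switching on CD8 lineage genes, among them Itgae.

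The values were signal intensities, and changes are given as log2 differences of intensity plus a small constant of 5.84, CD8SP minus CD4intCD8+, with a standard error (SE). Of 10916 genes tested, 227 changed (2.08%) in limma's fit blocked on the replicate number, at an adjusted p under 0.05: 137 were higher in CD8SP (1.26%) and 90 were lower (0.824%). Counts of calls in the gene lists below are read against these shares of 2.08%, 1.26% and 0.824%. The lists were chosen with earlier results of these data known, and some share genes. Their counts are therefore descriptions, neither tests of the lists nor independent of each other. At least 2-fold changes were found in 43 of the higher and 13 of the lower genes. All 227 moved the same way within both replicates, where 31.3% of all genes were higher and 30.9% lower within both. In 225 of the 227 the arrays of the stages did not overlap, against 38.8% of all genes tested. A call in a fit blocked on these pairs favours both properties, so they are no separate evidence for the calls. Without the block only 13 genes were called (0.119%), all among the 227, namely Klrd1, Itgae, F13a1, Igfbp4, Samhd1, Btbd11, Lcn4, Slc17a9, Clcf1, Atp8b4, Fam241a, Tmem71 and Ssbp2. The step before, from DP to CD4intCD8+, called 2562 genes (23.5%) in the same fit.

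The labels were checked against the coreceptor genes. Cd4 read 351 and 515 in DP cells, -33.0 and 11.8 in CD4intCD8+ and -65.8 and -68.6 in CD8SP, with values below 0 as deposited, so that its signal was below the low-signal limit in both stages compared although the intermediate is named for its CD4 protein. Cd8a read 2361 and 1481 in CD4intCD8+ and 1794 and 1608 in CD8SP. The disrupted gene Rag2 still gave signal, 137 and 193 in DP cells, 14.8 and 30.1 in CD4intCD8+ and 2.06 and 17.4 in CD8SP, and the place of its probe relative to the deletion was not known, so the gene checks nothing. Median intensities lay between 24.9 and 25.7 on the 6 arrays, and 2.78% to 4.33% of values were below 0. The ratio of 3' to 5' actin signal, which rises as RNA shortens, was higher on replicate 2 than on replicate 1 of each stage. So was the same ratio for Gapdh. The actin ratio was 3.47 on CD4intCD8+ replicate 2 and 1.98 to 2.62 on the others, and the Gapdh ratio was 1.99 there and 1.37 to 1.53 elsewhere. Without that array 223 genes were called, of which 145 were among the 227. Its part in the results was not tested further than by leaving it out. Leaving out a CD8SP array cut the count most, to 19 genes without CD8SP replicate 1 and to 13 without CD8SP replicate 2, whereas 453 were called without CD4intCD8+ replicate 1.

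**Figure D1:**
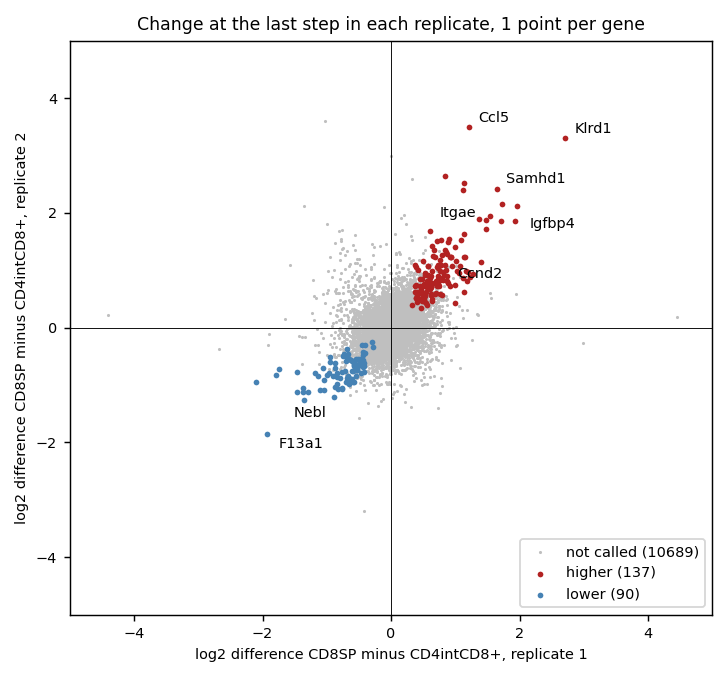
Log2 difference between CD8SP and CD4intCD8+ within replicate 1 (x axis) and within replicate 2 (y axis), 1 point for each of the 10916 genes. The 137 genes called higher (red) lie in the upper right and the 90 called lower (blue) in the lower left, with Klrd1 and F13a1 at the ends.

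The differences of replicate 1 and replicate 2 came from separate arrays. Their Pearson correlation across the 10916 genes was 0.343, where genes are not independent replicates. Replicate 2 held 131 genes at least 2-fold higher and 39 at least 2-fold lower in CD8SP, and replicate 1 held 49 and 45. In 29 genes (0.266% of those tested) the change was at least 2-fold in the same direction within both, 21 upward and 8 downward.

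Klrd1 showed the largest rise. It encodes CD94, the common chain of the CD94/NKG2 natural killer receptors. Its signal was 13.9 and 13.7 in DP cells, 37.0 and 44.0 in CD4intCD8+ and 275 and 485 in CD8SP, so that it rose at each step and no stage overlapped another. In bulk samples, more cells with a transcript and more transcript per cell cannot be told apart. The log2 change at the last step was 3.0, SE 0.21, with an adjusted p of 0.000173 in limma's blocked fit and 0.00407 without the block. The preceding step gave 1.23, and the difference between the steps had an adjusted p of 0.0378 in limma's fit. Of 14 natural killer receptor genes listed, 11 were on the array and 3 were bright enough to test. The limit was set on the mean over all arrays, so a gene bright mainly in CD8SP, as Klrd1 was, could pass it. Cd160, a receptor for HVEM, rose from 127 and 99.8 to 236 and 250.2 (log2 1.07, SE 0.16, limma adjusted p 0.0101, and 0.0693 without the block). Cd226 gave a log2 difference of 0.084 and was not called. The NKG2 partner genes Klrc1, Klrc2 and Klrc3 and the activating receptor Klrk1 were all below the signal limit. So were the 4 natural killer cell markers on the array (Ncr1, Tyrobp, Fcer1g and Klra8), whose summed signal was 57.8 and 63.3 in CD4intCD8+ and 77.8 and 76.6 in CD8SP. At the last step Klrd1 was called under every alternative setting in which it had a value, and Cd160 was lost without either CD8SP array.

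Itgae, the alpha E chain of the integrin CD103 that binds E-cadherin on epithelium, was the clearest of the adhesion genes. Signal was 61.3 and 41.6 in DP cells, 368 and 278 in CD4intCD8+ and 1211 and 1029.8 in CD8SP, with no overlap between stages. The rise was 1.78, SE 0.12 on the log2 scale (limma adjusted p 0.000173, and 0.0145 without the block), and its other probe gave 1.86. Its partner chain Itgb7 also rose, from 816 and 562 to 1348 and 1169 (log2 0.88, SE 0.10, limma adjusted p 0.00398). Of 16 adhesion genes tested, 4 were higher and 1 was lower, against 1.26% and 0.824% of all genes. Their median log2 difference was 0.13 against 0.00020 over all genes. Selplg, the P-selectin ligand, rose by 0.75 and the alpha 4 integrin gene Itga4 by 0.66, although the mean over all Itga4 probes was -0.13 (limma adjusted p 0.839). Itgb3 fell by 0.60. The beta 2 integrin genes Itgal and Itgb2 stayed uncalled at -0.095 and 0.052. Itgae kept its call in every setting, but Itgb7, Selplg, Itga4 and Itgb3 were lost without the block, and Itgb7 was kept without CD8SP replicate 1 but not without CD8SP replicate 2.

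TGF-beta is the textbook inducer of CD103, and 13 genes of its pathway were tested. The inhibitory Smad gene Smad7 rose from 194 and 128 to 314 and 309 (log2 0.95, SE 0.19, limma adjusted p 0.0286). Smurf2, a ubiquitin ligase that works with Smad7, rose from 153 and 163 to 310.2 and 275 (log2 0.86, SE 0.13, limma adjusted p 0.0101). These 2 genes were called and no member was called lower, and the pathway's median was 0.19. The receptor genes Tgfbr1 and Tgfbr2 gave -0.23 and 0.34, and Smad3 gave -0.32, none of them called. Neither call was kept without the block (adjusted p 0.28 and 0.0886 in limma) or without either CD8SP array.

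Samhd1, Igfbp4 and F13a1 were among the 5 genes whose call was lost in at most 1 setting, and their promoter windows are printed because they were the members of that group with an entry in RefSeq's table. Each window runs from 250 bases before to 50 after an annotated start, in build GRCm38.p6, read 5′ to 3′ on the gene's strand, with a matched motif in capitals. Samhd1 (chr2:157135047-157135346, minus strand) holds the Runx letters TGTGGT, F13a1 (chr13:37050195-37050494, minus strand) the E box letters CAGCTG, and Igfbp4 (chr11:99040994-99041293, plus strand) none of the motifs searched.
Samhd1: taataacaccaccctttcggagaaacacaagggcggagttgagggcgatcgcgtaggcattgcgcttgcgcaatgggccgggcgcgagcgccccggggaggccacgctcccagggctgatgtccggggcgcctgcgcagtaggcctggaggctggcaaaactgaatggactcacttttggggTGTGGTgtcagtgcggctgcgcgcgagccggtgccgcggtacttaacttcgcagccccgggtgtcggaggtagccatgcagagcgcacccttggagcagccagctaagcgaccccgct
F13a1: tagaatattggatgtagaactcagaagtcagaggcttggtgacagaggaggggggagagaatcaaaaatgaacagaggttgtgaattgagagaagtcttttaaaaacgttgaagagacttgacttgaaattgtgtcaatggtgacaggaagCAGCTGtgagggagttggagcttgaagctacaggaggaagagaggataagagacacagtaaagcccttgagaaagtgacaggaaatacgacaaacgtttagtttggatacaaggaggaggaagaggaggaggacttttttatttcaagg
Igfbp4: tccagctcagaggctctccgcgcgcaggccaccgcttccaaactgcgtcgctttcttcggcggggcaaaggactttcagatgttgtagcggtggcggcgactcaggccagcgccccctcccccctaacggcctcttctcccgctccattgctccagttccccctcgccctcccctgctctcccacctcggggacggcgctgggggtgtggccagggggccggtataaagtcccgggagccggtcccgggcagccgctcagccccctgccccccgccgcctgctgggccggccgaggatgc
The first motif base lies 68 bases before the Samhd1 start and 99 before this F13a1 start, and the other F13a1 start had no match.

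Samhd1, a hydrolase that breaks down deoxynucleoside triphosphates and limits retroviruses, was not called at the step before (limma adjusted p 0.429). Its signal was 59.3 and 43.7 in DP cells, 68.3 and 55.4 in CD4intCD8+ and 226 and 322 in CD8SP. The stages did not overlap at the last step, where it rose by 2.03, SE 0.20 (limma adjusted p 0.00199, and 0.0145 without the block). Igfbp4, which binds and restrains insulin-like growth factors, went from 88.9 and 68.5 to 355 and 265 (log2 1.90, SE 0.18, limma adjusted p 0.00151, and 0.0145 without the block). Its 6 probes gave differences of 0.67 to 2.22, all upward, and its call was lost only without CD8SP replicate 1. Samhd1 lost its call only in the fit without an intensity trend.

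F13a1, the catalytic A subunit of clotting factor XIII, showed the largest fall. Signal was 525 and 566 in DP cells, 199.5 and 168 in CD4intCD8+ and 48.3 and 42.3 in CD8SP, stepping down without overlap. The last step gave -1.89, SE 0.13 (limma adjusted p 0.000173, and 0.00407 without the block) and the step before -1.54. F13a1 is also a gene of platelets and macrophages. The 4 platelet markers summed to 135 and 150 in CD4intCD8+ and 133 and 155 in CD8SP. The 7 myeloid markers summed to 216 and 259 and then to 231 and 251. The 2 platelet markers bright enough to test, Pf4 (-0.10) and Itga2b (-0.068), were lower within both replicates and not called. Of the 3 myeloid markers tested, Lyz2 gave -0.64, Csf1r 0.33 and Adgre1 0.14, none of them called. The part of such cells in the fall was not tested.

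**Figure D2:**
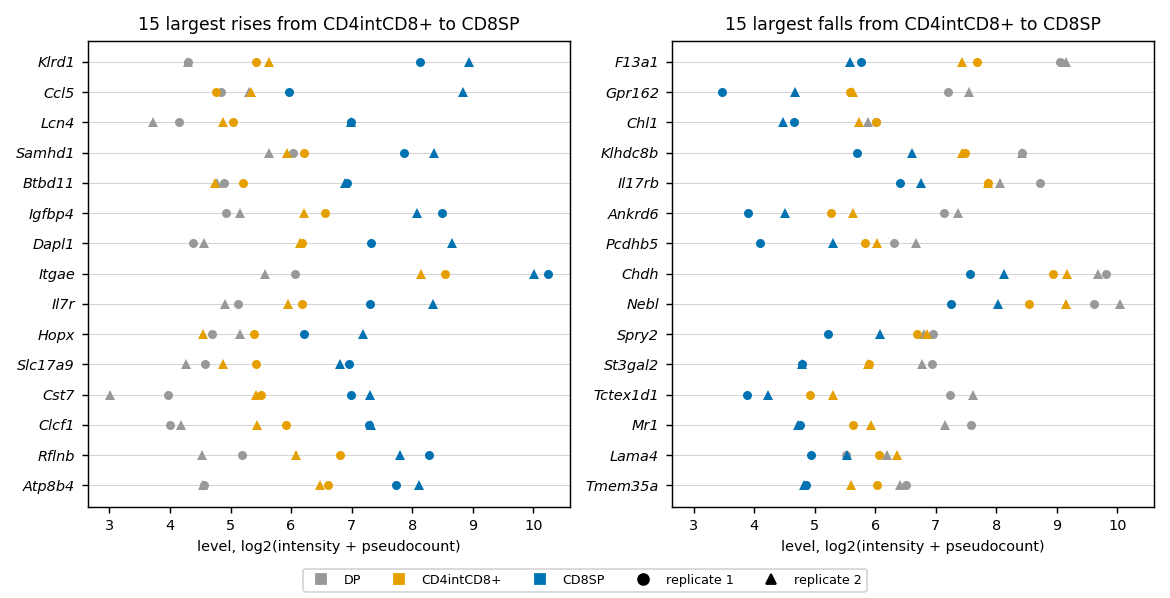
Level of each of the 15 largest rises (left) and 15 largest falls (right) on every array, as log2 of intensity plus 5.84 (x axis). Colours mark the stage and shapes the replicate. In each row both CD8SP points lie beyond both CD4intCD8+ points, and Ccl5 shows the widest gap between CD8SP replicates, 57.0 and 451.

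Other large rises were of genes with unlike roles. Lcn4, a lipocalin, rose from 27.0 and 23.4 to 122 and 121 (log2 2.04, SE 0.23, limma adjusted p 0.0033). Btbd11 rose from 30.9 and 20.8 to 116 and 112 (log2 1.94, SE 0.21, limma adjusted p 0.00264). Slc17a9, the vesicular nucleotide transporter that loads ATP into vesicles, rose from 36.9 and 23.4 to 118 and 107 (log2 1.74, SE 0.21, limma adjusted p 0.0045). These 3 genes were near or under the low-signal limit, an intensity of 30.8, in both earlier stages. Clcf1, a cytokine of the interleukin 6 family, rose by 1.63, the filamin-binding gene Rflnb by 1.60, the phospholipid flippase gene Atp8b4 by 1.38 and the homeodomain-only gene Hopx by 1.74. Second probes were weaker for Lcn4 (0.72) and Slc17a9 (0.54), the other two probes of Clcf1 gave 1.5 and 0.29, and a dim one for Atp8b4 gave -0.15. Of the 15 largest rises, 9 were kept without the block, 15 without either CD4intCD8+ array, 7 without CD8SP replicate 1 and 4 without CD8SP replicate 2 (Itgae, Klrd1, Samhd1 and Igfbp4).

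The 14 largest falls after F13a1 were of genes with unlike roles. Chdh, which oxidises choline in mitochondria, fell from 482 and 572 to 183 and 273 (log2 -1.21, SE 0.15, limma adjusted p 0.0045). Nebl, an actin-binding protein, fell from 368 and 564 to 146 and 256 (log2 -1.21, SE 0.12, limma adjusted p 0.00151). Il17rb, a receptor chain for interleukin 25, fell from 226 and 228 to 78.7 and 102 (log2 -1.29, SE 0.20, limma adjusted p 0.0114). For all 3, CD8SP lay below CD4intCD8+ without overlap, and DP was higher than either. Klhdc8b fell by 1.31 on the log2 scale, the orphan receptor gene Gpr162 by 1.53, the adhesion gene Chl1 by 1.31, Ankrd6 by 1.24 and the protocadherin gene Pcdhb5 by 1.23. Mr1, which presents vitamin B metabolites to innate-like T cells, fell from 43.9 and 54.9 to 21.1 and 20.5 (log2 -1.05, SE 0.20, limma adjusted p 0.0275). Spry2, a signalling inhibitor described with the receptor response genes, St3gal2, Tctex1d1, Lama4 and Tmem35a made up the rest, with falls of 1.12, 1.09, 1.06, 0.98 and 0.98. Of the 15 largest falls, F13a1 alone was kept without the block and without CD8SP replicate 1, 13 and 14 were kept without CD4intCD8+ replicates 1 and 2, and 5 were kept without CD8SP replicate 2 (Chdh, F13a1, Gpr162, Klhdc8b and Nebl).

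Several genes of thymocyte maturation and egress rose. Of 20 tested, 8 rose and 1 fell (Cd28, by 0.68), against 1.26% and 0.824% of all genes, and the median was 0.46. Il7r, the interleukin 7 receptor alpha chain, had signals of 66.8 and 55.7 in CD4intCD8+ and 152 and 318 in CD8SP (log2 1.76, SE 0.27, limma adjusted p 0.0114). Dapl1 went from 66.3 and 65.1 to 153 and 399.9 (log2 1.83, SE 0.28, limma adjusted p 0.011). In both, replicate 2 of CD8SP was the higher, yet neither stage overlapped the other. S1pr1, the sphingosine 1-phosphate receptor that lets thymocytes leave, rose from 99.1 and 71.5 to 209 and 148 (log2 1.01, SE 0.18, limma adjusted p 0.0166). Ccr7, which guides cells to the medulla, rose from 295 and 164 to 496 and 343 (log2 0.89, SE 0.13, limma adjusted p 0.0099). Slfn1 rose by 1.27, Ms4a4b by 0.51, Klf3 by 0.48 and Foxo1, a transcription factor for Il7r and Klf2, by 0.49. Klf2, a direct activator of S1pr1, had signals of 1413 and 755 in CD4intCD8+ and 1717 and 1755 in CD8SP, did not overlap and missed the threshold (log2 0.75, SE 0.19, limma adjusted p 0.0844). Bcl2 (0.48, 0.0542) and Cd24a (-0.33, 0.0575), a marker lost on maturation, also missed it in limma. None of the 9 calls was kept without the block or without CD8SP replicate 2, and 2 (Dapl1 and Il7r) were kept without CD8SP replicate 1.

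Receptors for chemokines and lipids moved in both directions. Of 7 tested, 3 rose (S1pr4 by 1.08 besides S1pr1 and Ccr7) and 1 fell, with a median of 0.85. The gene that fell was Ccr9, the cortical receptor for Ccl25, at 4368 and 4220.4 in DP cells, 3076 and 3089 in CD4intCD8+ and 2308 and 1933 in CD8SP (log2 -0.54, SE 0.073, limma adjusted p 0.00677). All 5 of its probes were lower, by 0.54 to 1.19. Cxcr3 was 33.1 and 38.2 in CD4intCD8+ and 34.7 and 131 in CD8SP, so the difference lay in replicate 2, and it was not called. Cytokine receptor genes gave 5 rises and 1 fall among 20 tested, with a median of 0.19. Il2rb, the shared beta chain for interleukins 2 and 15, rose from 108 and 66.3 to 173 and 189 (log2 1.04, SE 0.20, limma adjusted p 0.0286), the feedback inhibitor Socs3 by 1.14, Il27ra by 0.60 and Il17ra by 0.51. Il12rb1 fell by 0.87. None of these 10 calls in the 2 lists was kept without the block or without CD8SP replicate 2.

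Of 12 CD8 and cytotoxic genes tested, 4 rose and none fell, against 1.26% and 0.824% of all genes, and the median was 0.23. The 4 were Ccl5, Cst7, Ctsw and Nkg7, and the granule effector genes Gzma, Gzmb and Prf1 were not called. Ccl5, the chemokine RANTES, had 21.1 and 34.8 in CD4intCD8+ and 57.0 and 451 in CD8SP, a rise carried mostly by replicate 2 (log2 2.36, SE 0.46, limma adjusted p 0.0279, and 0.303 without the block). Cst7, the cystatin F that restrains granule proteases, rose from 39.6 and 37.2 to 121 and 152 (log2 1.68, SE 0.30, limma adjusted p 0.018). The cathepsin gene Ctsw rose from 751 and 411 to 1351 and 1055 (log2 1.09, SE 0.15, limma adjusted p 0.00647). Nkg7, a granule membrane protein, rose by 0.96. Gzma was 2434 and 2949 and then 2345 and 2672, and its step before had a log2 change of 1.55 (limma adjusted p 2.47e-05). Gzmb gave 0.68 and Prf1 0.036. Runx3 (354 and 248, then 363 and 295), Cd8b1 (0.14) and Cd8a (-0.14) were also not called, with limma adjusted p-values of 0.7, 0.565 and 0.733. Without CD8SP replicate 1 Ccl5 alone of the 4 was kept (log2 3.52, limma adjusted p 0.00615), and none was kept without CD8SP replicate 2, where Ccl5 gave 1.19 (0.31).

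Protease genes of lysosomes and granules moved both ways. Of 13 cathepsins and cystatins, 3 rose (Cst7, Ctsw and Ctss) and 1 fell. Ctss, cathepsin S of the class II pathway, rose from 548 and 392 to 1058 and 829.8 (log2 1.01, SE 0.12, limma adjusted p 0.00398). Ctsl fell from 269 and 316 to 179.5 and 186 (log2 -0.65, SE 0.11, limma adjusted p 0.015). Antigen-presenting cells also express Ctss, and the 7 dendritic markers summed to 343 and 402 in CD4intCD8+ and to 428 and 658 in CD8SP. The 4 of them tested gave positive differences, from 0.39 for Cd74 to 1.04 for H2-Eb1, and none was called. The defining markers Itgax, Flt3 and Siglech were below the signal limit. Their part in the result was not tested.

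**Figure D3:**
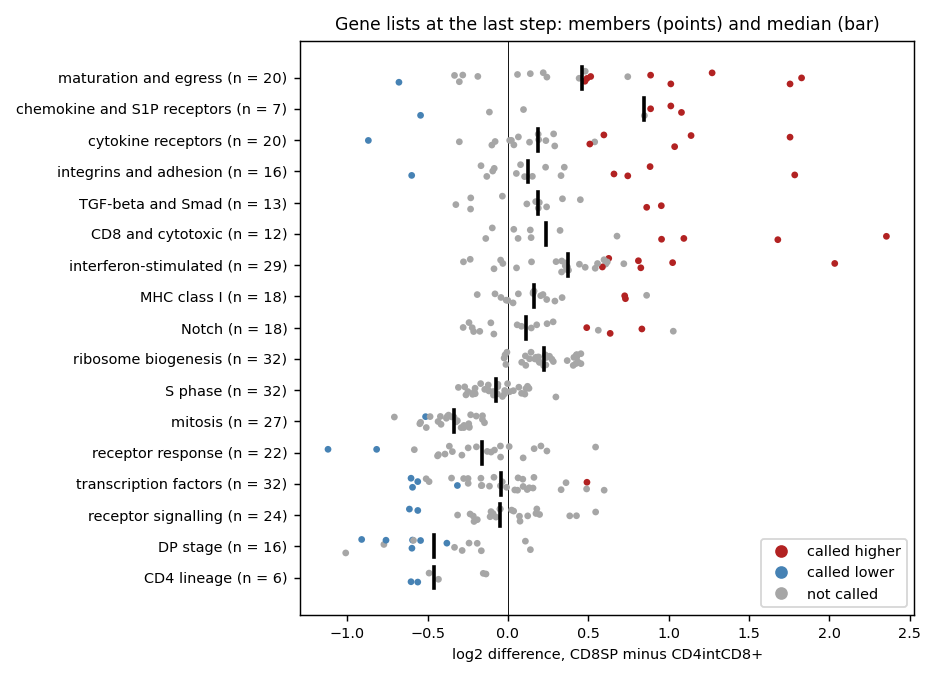
Log2 difference between CD8SP and CD4intCD8+ (x axis) for the tested members of 17 gene lists, 1 point per gene, red where called higher, blue where called lower and grey where not called, with the median as a bar. The medians run from 0.85 for chemokine and sphingosine 1-phosphate receptors to -0.46 for the DP stage and CD4 lineage lists.

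Several genes of the DP program fell. Of 16 tested, 6 fell and none rose, against 0.824% and 1.26% of all genes. Negative differences were found in 14, where 5454 of all 10916 genes had them, and the median was -0.46. The lowest of them, -1.01, was that of Rag2, the gene disrupted in these mice, which checks nothing. Bcl6, a repressor high at the DP stage, stood at 606 and 601 in DP cells, 189.9 and 216 in CD4intCD8+ and 109.6 and 101 in CD8SP (log2 -0.91, SE 0.12, limma adjusted p 0.00686). A dim second probe of it gave 0.23. Sox4 went from 1442 and 1332 to 968 and 688 (log2 -0.76, SE 0.099, limma adjusted p 0.00627). Dntt, the polymerase that adds bases at receptor joins, went from 1108 and 1409.8 to 661 and 1026 (log2 -0.60, SE 0.097, limma adjusted p 0.0131). Ets2 and the chromatin organiser Satb1 fell by 0.59 and 0.38, and Ccr9 is the other call. Rag1, whose locus is intact in these mice, was 1046 and 1054 in DP cells, 101 and 134 in CD4intCD8+ and 57.8 and 97.9 in CD8SP, with most of the drop at the first step (log2 -3.11) and a last step of -0.59, SE 0.16 that was not called (limma adjusted p 0.102). None of the 6 calls was kept without the block or without CD8SP replicate 2, and Ccr9 and Sox4 were kept without CD8SP replicate 1.

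Of the CD4 lineage list, 2 genes fell, where 0.824% of all genes fell. All 6 tested members had negative differences, where 5454 of all 10916 genes had them, with a median of -0.46. Gata3, a factor needed for CD4 cells, had 864 and 872 in DP cells, 545 and 618 in CD4intCD8+ and 339.7 and 450.3 in CD8SP (log2 -0.56, SE 0.11, limma adjusted p 0.0321). Myb went from 745 and 814 to 472 and 553 (log2 -0.60, SE 0.10, limma adjusted p 0.0147), and its other 2 probes gave -0.62. Tox (-0.43, 0.0571) and Runx1 (-0.49, 0.162) missed the threshold in limma. Zbtb7b, the CD4 lineage factor ThPOK, was below the signal limit, at 30.1 and 31.6 and then 38.1 and 28.0. Of 32 thymic transcription factors, 1 rose (Foxo1) and 4 fell (Myb, Ets2, Gata3 and, by 0.31, Bcl11b). None of these calls was kept without the block or without either CD8SP array.

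Of 22 receptor response genes tested, 2 fell and none rose, where 0.824% of all genes fell, and the median was -0.16. At an unadjusted p under 0.05 in limma there were 10 of the 22 and 1637 of all 10916 genes, and 14 of the 22 were lower within both replicates, against 30.9% of all genes. Spry2, an inhibitor of the Ras-ERK pathway, read 118 and 106 in DP cells, 96.9 and 109.8 in CD4intCD8+ and, after its fall, 31.5 and 61.6 in CD8SP (log2 -1.12, SE 0.21, limma adjusted p 0.0275). Itm2a, a membrane protein gene induced in positive selection, went from 2171 and 1727 to 1342 and 895 (log2 -0.82, SE 0.084, limma adjusted p 0.00214). Cd69 (-0.084), Cd5 (0.0074), Nr4a1 (-0.046) and Egr1 (-0.29) were not called. Of the receptor signalling genes, 24 were tested and 2 fell, Sh2d1a (SAP) by 0.61 and the adaptor gene Sla by 0.56. The costimulatory genes Cd28 and Slamf1 fell by 0.68 and 0.77, and with Sh2d1a they made 3 falls and no rise among 13 costimulatory and SLAM genes. No immediate early gene of the AP-1 list was called in limma among 10 tested (2 at an unadjusted p under 0.05). Without the block or without CD8SP replicate 2 all these calls were lost, and Itm2a was the call kept without CD8SP replicate 1.

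Interferon-stimulated genes gave 6 calls, all upward. Of 29 tested, none fell and 23 were higher in both replicates, against 31.3% of all genes, with a median of 0.38. Beside Samhd1 these were Irf7 (from 213 and 102 to 371 and 254, log2 1.02, SE 0.14, limma adjusted p 0.00756), Parp14 by 0.83, Ifit3 by 0.81, Xaf1 by 0.63 and Ifi35 by 0.59. Irf7 is the master factor of the type I interferon response. The stages overlapped for Xaf1 (226 and 123, then 329.7 and 207) and for none of the other 5, and the replicate 1 array was the brighter of each stage for all 6 but Samhd1 in CD8SP. Without CD4intCD8+ replicate 2, the array with the high actin ratio, Samhd1 and Irf7 were kept, and without CD4intCD8+ replicate 1 the count was 11. Samhd1 was the call kept without the block and without either CD8SP array. Among 18 class I genes tested 2 rose: H2-K1 rose from 1299 and 857 to 1689.5 and 1822 (log2 0.73, SE 0.14, limma adjusted p 0.025) and H2-D1 by 0.73, both lost without the block, without CD4intCD8+ replicate 2 and when arrays were centred on their medians. These class I genes are near-copies of each other, and a probe may read more than its own gene. Their regulator Nlrc5 gave 0.86 (limma adjusted p 0.0542).

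Cell cycle genes were taken by phase. All 27 mitosis genes tested were lower in both replicates, against 30.9% of all genes, with medians of -0.35 and -0.36 within replicates 1 and 2 and of -0.34 in the fit. Only Kif23, a motor of the dividing midbody, was called, falling from 543 and 576 to 405 and 376 (log2 -0.51, SE 0.11, limma adjusted p 0.0457). The Kif23 call was lost in 9 of 18 alternative settings, among them no block and the mean of all probes. Ttk, a spindle checkpoint kinase, had the largest difference, -0.71, uncalled. Without CD4intCD8+ replicate 1 the count called was 10, and without CD4intCD8+ replicate 2 it was 0, with 24 genes below 0 and a median of -0.22. With the actin ratio as a covariate 20 were below 0 and the median was -0.17. The 32 S phase genes had a median of -0.072 and none called in limma (5 at an unadjusted p under 0.05), and the sign turned to 0.14 with the actin covariate, to 0.077 without CD4intCD8+ replicate 2 and to 0.011 without CD8SP replicate 1. Ccnd2, the D-type cyclin of the G1 list, rose from 1046 and 647 to 1906 and 1614 (log2 1.09, SE 0.12, limma adjusted p 0.00303), and its 7 probes gave 0.82 to 1.09. The Ccnd2 call was lost in 3 of 18 alternative settings, among them no block. Cdkn1b, a kinase inhibitor of G1, gave -0.51 uncalled.

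**Figure D4:**
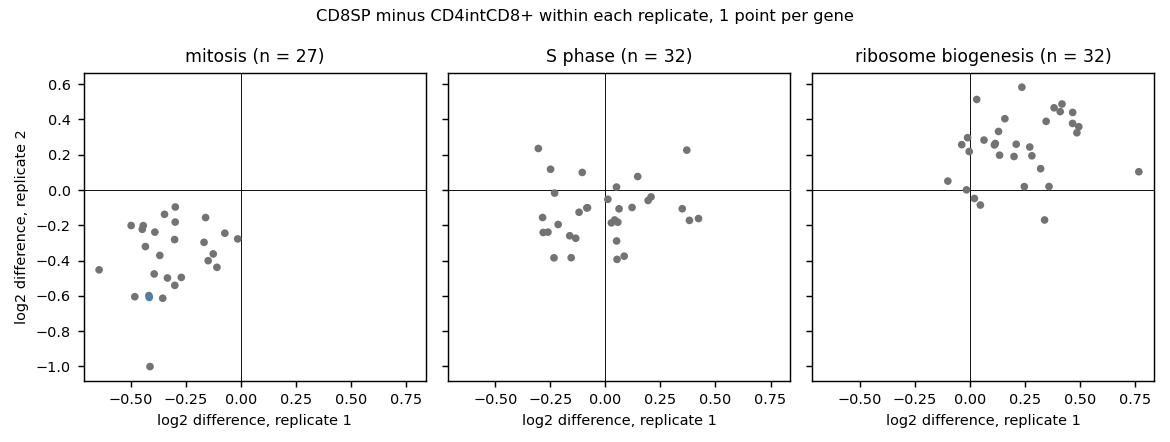
Log2 difference within replicate 1 (x axis) against replicate 2 (y axis) for genes of mitosis, S phase and ribosome biogenesis, 1 point per gene. All 27 mitosis genes lie below 0 on both axes, 24 of 32 ribosome biogenesis genes above 0 on both, and S phase genes on either side.

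Genes of protein synthesis and turnover gave no call in limma. Of 32 ribosome biogenesis genes, 28 were positive, where 5462 of all 10916 genes were. Within both replicates 24 were positive, against 31.3% of all genes. The median was 0.23 and the range from -0.024 for Utp15 to 0.45 for Bop1. None was called in limma (12 at an unadjusted p under 0.05), and Nop2 (log2 0.45, SE 0.12, adjusted p 0.0855 in limma), an rRNA methyltransferase, was among the nearest. Without CD4intCD8+ replicate 2 the count called was 3. The 18 tRNA synthetases had a median of 0.16 and no call in limma (4 unadjusted). Of them 15 were positive, and 13 were positive within both replicates, read against the same shares of all genes. Myc, a known driver of both sets, gave 0.78 (limma adjusted p 0.0726). The proteasome (31 tested), the CCT chaperonin and heat shock list (15), the respiratory chain (46), the cytosolic ribosome (44) and the mitochondrial ribosome (73) had medians between -0.053 and 0.054 and no call in limma, with 4, 0, 7, 4 and 3 genes at an unadjusted p under 0.05, of 1637 among all genes. No gene of the cholesterol list (17 tested) or of the NF-kappaB list (11 tested) was called in limma, with 2 and 2 at an unadjusted p under 0.05.

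Calls in other families are read against the 2.08% of all genes that were called. Notch1 rose by 0.49, and with Dtx1, its ubiquitin ligase target, at 379.9 and 308 and then 705 and 535 (log2 0.83, SE 0.11, limma adjusted p 0.00686), and the glycosyltransferase Mfng (0.64), it made 3 rises and no fall among 18 Notch genes. The list of double-negative and immature single-positive cell markers, which shares Dtx1 and Notch3, summed to 614 and 617 in CD4intCD8+ and to 928 and 859 in CD8SP, with Il2ra, Kit and Erg below the signal limit and Ptcra at -0.13. That sum moved with Dtx1 itself, whose signals are those just given, so it is no separate measure. Of 18 glycosyltransferase genes, St3gal2, Mgat5 and St8sia1 fell by 1.09, 0.59 and 0.59 and B4galnt1 rose by 0.64, where a dim second probe gave -0.34 and the mean of its probes 0.15, which was not called (limma adjusted p = 0.73). Gimap3 rose by 0.94 as the only call of 8 Gimap genes, and Slfn8 by 0.97 beside Slfn1 among 4 Schlafen genes. Ldhb, the heart-type lactate dehydrogenase, fell from 688 and 577 to 349 and 329.9 (log2 -0.88, SE 0.12, limma adjusted p 0.00686) with its 4 probes at -0.76 to -0.92, and was the only call of 16 glycolysis genes. Fas, the death receptor, fell by 0.77, Ephb6 by 0.77, and the TNF-family ligand gene Ltb rose by 0.55. None of these calls was kept without the block or without either CD8SP array.

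The last step and the step before it share the CD4intCD8+ arrays, so an error there moves the steps in opposite directions. The difference between the steps was called for 215 genes (1.97%) with the block and for 1 (0.00916%) without it, Nr4a3, an orphan nuclear receptor chosen here after its values were seen. Nr4a3 read 33.7 and 31.6 in DP cells, 209 and 185 in CD4intCD8+ and 191 and 189 in CD8SP, with log2 changes of 2.39 and -0.047. The count with the block was at most 1 without either CD8SP array, 649 and 85 without CD4intCD8+ replicates 1 and 2, and 574 and 53 without DP replicates 1 and 2. Among the 227 genes of the last step, 24 were called for the difference. Of these, 5 were called at the last step and not at the first (Btbd11, Fam241a, Samhd1, Insl6 and P2rx7). P2rx7, an ATP-gated channel, had a mean of 117 in DP cells and fell from 146 and 183 to 83.4 and 84.6. At the first step P2rx7 and Insl6 had risen by 0.48 and 0.40, short of the threshold (limma adjusted p 0.0573 and 0.0715). Fam241a read 200.2 and 199 in DP and 194 and 182 in CD4intCD8+ and rose to 412 and 390.4 in CD8SP (log2 1.07, SE 0.11, limma adjusted p 0.00264).

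Another 7 of the 24 fell and then rose. Il17ra read 545 and 541 in DP, then 364 and 346, then 525 and 492, and Dgka, a lipid kinase that curbs receptor signalling, read 1621 and 1527, then 1235 and 1078, then 1549.9 and 1421. Atg4a, Cnp, Gramd1a, Grk6 and Plec had the same order. Rises followed by falls were seen in 4 genes: Itgb3, Abi2, BC035044 and Spc25, a kinetochore gene at 354 and 418, then 528 and 773, then 387 and 476. Only Klrd1 of the 24 was called in the same direction at both steps with the larger change at the last. In 7 genes called in the same direction at both steps the first change was larger. Among them were Ccnd2 (log2 2.92 and then 1.09), Cd7 (2.75 and 0.88), Nkg7 (2.04 and 0.96) and Ets2 (-1.51 and -0.59). These genes outside the lists were chosen after their values were seen.

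**Figure D5:**
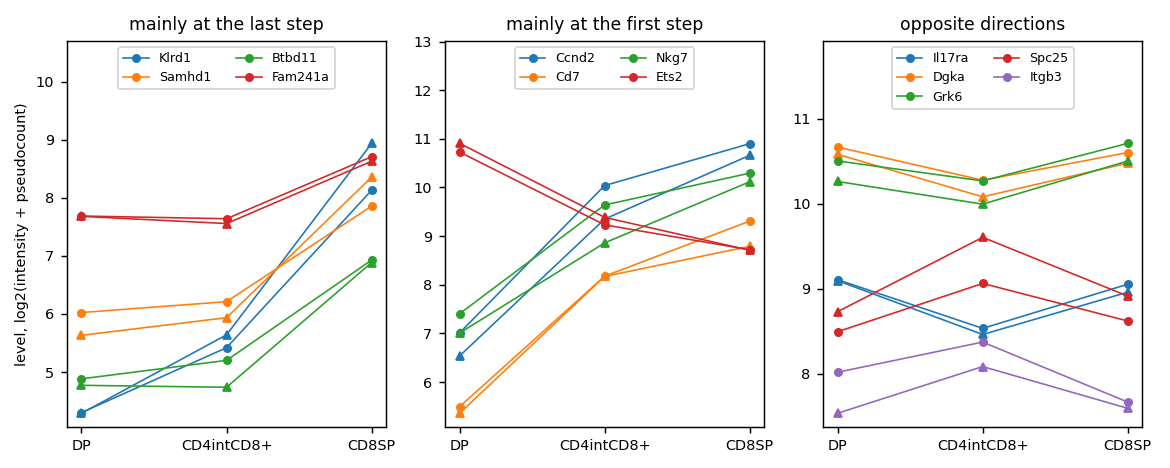
Level on each array, as log2 of intensity plus 5.84 (y axis), of selected genes for which the steps differed, across the 3 stages, with lines joining arrays of the same replicate number (circles 1, triangles 2). Samhd1 and Btbd11 climb at the last step, Ccnd2 and Cd7 mainly at the first, and Il17ra dips in CD4intCD8+.

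Promoter windows of the changed genes were searched for 3 sets of letters on both strands, TGTGGT (Runx), CAGCTG (E box, its own reverse complement) and CCGGAA (Ets), none of which contains another. RefSeq's table held windows for 98 of the 137 higher genes and 68 of the 90 lower genes. The Runx letters were in 17.6% of windows of higher genes, 5.21% of windows of lower genes and 12.9% of windows of all genes tested. The E box letters were in 15.5%, 14.6% and 15% of them, and the Ets letters in 9.15%, 17.7% and 27.0%. Shares over all RefSeq windows were 16.8%, 16.3% and 14.9%, and no test was made of these shares.

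Of the 11 marker lists for cell types, the DP list summed to 116 and 176 in CD4intCD8+ and 59.9 and 115 in CD8SP, and its 2 tested genes (Rag1 and Rag2) were not called. The disrupted gene Rag2 is part of that sum. The mature CD8SP list gave 3 rises (Il7r, S1pr1 and Ccr7) among 6 tested, with -0.14 for Cd8a. The B cell markers summed to 194 and 88.4 and then to 227 and 220, with Cd79b at 0.88 and Ms4a1 at 1.04 uncalled and Cd79a and Pax5 below the signal limit. Epithelial markers summed to 133 and 147 and to 127 and 131, erythroid to 83.6 and 61.9 and to 123 and 99.5, and gamma delta to 70.4 and 86.2 and to 71.4 and 91.8. Their part in the results was not tested.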

How the data were processed

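The 6 arrays were read from a table of signal intensities that the authors deposited for each probe. The scaling of those intensities is unknown here, and no second normalization was made. Negative intensities were set to 0, 5.84 (the 10th percentile of positive values) was added and log2 taken, which understates the change of dim genes. Of 45101 probes 64 controls were left out; 34945 had 1 gene symbol in GEO's platform annotation, 932 several and 9160 none, and the probe with the highest mean stood for each of 18193 genes. Genes under the 40th percentile (an intensity of 30.8) were dropped, leaving 10916. limma 3.58.1 in R 4.3.3 (lmFit, eBayes with an intensity trend, Benjamini-Hochberg adjustment) was fitted on all 6 arrays with stage and replicate number as terms, leaving 2 residual and 8.31 prior degrees of freedom. The labels name independent experiments, and the numbers were taken to pair the arrays. Deviations from stage means of arrays with the same number correlated across genes at 0.261, 0.205 and 0.303. The actin ratio was also higher on replicate 2 of each stage, and these correlations cannot tell a shared experiment from a shared shift in RNA quality. The genes named were, of those called with no overlap between the stages, the 15 highest and the 15 lowest by log2 change, up to 4 members of each of 49 gene lists, all genes called without the block and a fixed set of anchor genes; others are marked where they appear. Members and lists were chosen with earlier results of these data known. Alternatives covered the block, trend, pseudocount, filter, probe choice, normalization, an actin ratio covariate and leaving out each array, with the random block fitted through statmod 1.5.0.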

Additional observations from a re-analysis of the deposited data

How the results depend on the processing

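Counts here are of genes called, of higher and lower genes, and of genes called for the difference between the steps; as reported they were 227, 137, 90 and 215. With 2 arrays a stage they depended most on how the spread was estimated. Without the replicate block they were 13, 11, 2 and 1, with the replicate number as a random effect 102, 59, 43 and 3, and without an intensity trend 9, 7, 2 and 0. With the mean of all probes they were 128, 87, 41 and 89. Leaving out each array in turn gave 13 to 453, 5 to 284, 5 to 169 and 0 to 649. For the difference between the steps alone, the 60th percentile filter gave 500, centring the arrays on their medians 131 and the actin covariate 47. Other settings stayed within 1.5 times. The fits without either CD4intCD8+ array and with the actin covariate took the spread wholly from the intensity trend, so their p-values rest on genes of like intensity varying alike. Sign changes were recorded only for named genes called in the reported fit or in the alternative. Among these, signs turned for Itga4 (-0.13 with the mean of all probes) and for Rpl27a, a ribosomal protein gene not called at 0.30. Rpl27a was -0.64 with the actin covariate and -0.65 without CD4intCD8+ replicate 2 (1.25 without CD4intCD8+ replicate 1). The cause was not tested. F13a1 and Itgae kept their calls in all 18 alternatives and Klrd1 in the 17 that measured it; 31 of the 227 genes lost theirs in 8.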
